A study of Homo sapiens with 4 samples.

Results

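ATP-binding cassette (ABC) genes were followed across ribosome footprints and matched RNA fragments from 2 lines made from SW480, a cell line established from a human colorectal adenocarcinoma. They were taken by symbol, as every gene named ABCA to ABCG followed by a digit. This gave 45 of the 19192 genes in the tables. 41 encode membrane proteins, which are transporters except for the channel regulators ABCC8 and ABCC9. A further 4 (ABCE1, ABCF1, ABCF2 and ABCF3) encode soluble factors that act on the ribosome. One line was labelled LIN28B OE+IMP1-/- knockout and is called KO-labelled here. The other was labelled LIN28B OE and is called OE-labelled. Both labels give overexpression of LIN28B, an RNA-binding protein that blocks maturation of let-7 microRNAs. IMP1, which IGF2BP1 encodes, binds many mRNAs and can alter how long they last and how well they are translated. Each line gave 1 RNA library and 1 footprint library, each from 3 pooled culture plates. Whether either line is a single clone is not given in the sources used here.

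ABC proteins bind and hydrolyse ATP through nucleotide-binding domains that close like a clamp around the nucleotide. In most of the family these domains drive transport across a membrane, either as full transporters with a pair of such domains or as shorter proteins that carry a single one and work as dimers. ABCB1, also called P-glycoprotein or MDR1, exports many hydrophobic drugs and is known in the colon epithelium and in drug-resistant tumours. Its mRNA has been described as bound in its coding region by IMP1. ABCE1 and the ABCF proteins lack membrane-spanning parts: ABCE1 splits the ribosome into its subunits after termination, and ABCF1 binds the initiation factor eIF2.

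No comparison below has a replicate check, since each line and assay had 1 library. Ratios are KO-labelled over OE-labelled, after scaling within each assay by the trimmed mean of M values (TMM), and the 95% intervals cover counting error only. A gene counted as measured where its mean over both libraries of an assay reached 50 counts. Total counts were 6813372 in KO-labelled RNA, 5429224 in OE-labelled RNA, 3260262 in KO-labelled footprints and 2732760 in OE-labelled footprints. IGF2BP1 went against the knockout label: it had 1974 and 840 RNA counts in the KO-labelled and OE-labelled lines and 821 and 332 footprint counts. LIN28B had 303 and 1205 RNA counts in the KO-labelled and OE-labelled lines. Every direction is therefore between libraries carrying these labels, not a measured loss of IMP1. Of 9 colorectal epithelial markers, 7 were detected in all 4 libraries, with summed levels of 5160 CPM (counts normalised to the library total) in KO-labelled RNA and 10026 in OE-labelled RNA, and 15070 and 29528 in the footprints. KRT18 and KRT8 carried most of these sums, and CDH1 went the other way with 614 and 243 RNA counts in the KO-labelled and OE-labelled lines. CDX1 and KRT20 were at 0 everywhere. Fibroblast, endothelial and muscle markers summed to 38.9 CPM in KO-labelled RNA and 25.4 in OE-labelled RNA. DES carried most of these sums, with 156 RNA counts in the KO-labelled and 101 in the OE-labelled line. COL1A1 had 55 and 2 RNA counts in the same order, PDGFRB had 6 and 11, and COL1A2 had 0 in both. Haematopoietic markers summed to at most 2.56 CPM in any library, with PTPRC at 0, and hepatocyte markers to at most 0.147 CPM, with ALB at 0. The part of these levels in the results below was not tested, and fewer cells of a kind cannot be told apart from less RNA per cell.

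The codons of the Walker A motif, the loop that holds the ATP phosphates, were sought in each member. The translated coding sequence of each listed transcript (GENCODE release 29, GRCh38) was searched for a glycine, any pair of residues, a glycine, any residue, then glycine, lysine and serine or threonine. Only ABCG8 had no match among the 45 genes. The motif occurred once in 13 membrane members, at 2 sites in 27, and at 2 sites in all 4 ribosome factors. Stretches of 19 residues with a mean Kyte-Doolittle hydropathy of at least 1.6 numbered 1 to 15 per membrane member (median 10) and 0 in each of ABCE1, ABCF1, ABCF2 and ABCF3. The sites below belong to members whose ratios are described later, and ABCB4 is added as the neighbour and closest relative of ABCB1. The 9 bases in capitals encode the glycine, the lysine and the serine or threonine at the end of the motif.
ABCB1, site 1 (chr7:87550219-87550242, minus strand): ggaaacagtggctgtGGGAAGAGC
ABCB1, site 2 (chr7:87515282-87515305, minus strand): ggcagcagtggctgtGGGAAGAGC
ABCB4, site 2 (chr7:87408088-87408111, minus strand): ggcagcagtggctgtGGGAAGAGC
ABCB6 (chr2:219212465-219212488, minus strand): ggcccatctggggcaGGGAAGAGC
ABCC5, site 1 (chr3:183967722-183967745, minus strand): ggcagtgtgggaagtGGAAAAACC
ABCA13, site 1 (chr7:48389189-48389212, plus strand): gggacaaacggtgccGGGAAAACC
ABCE1, site 1 (chr4:145109172-145109195, plus strand): ggaactaatggtattGGAAAGTCA
ABCF3, site 1 (chr3:184188199-184188222, plus strand): gggcggaatgggttgGGGAAGACA
The second sites of ABCB1 and ABCB4 are the same 24 bases, a length within the 18 to 34 nt of the footprints. Such shared runs bear on how reads are assigned. Of the 28-base words in the coding sequence of ABCB1, 5.95% also occur in transcripts of another gene, all of them in ABCB4. The share was 91.0% for ABCB6 and 99.9% for ABCF2, mostly through annotated loci that overlap them on the same strand. It was 50.9% for ABCE1, 21.6% for ABCB10 and 21.5% for ABCC6, where the copies include the pseudogenes ABCB10P4 and ABCC6P1. Whether the authors' counting split such reads is not given in the sources used here, so the values of these genes are uncertain to that extent. The strand setting is not given either, and the exons of ABCE1 overlap those of ANAPC10 and OTUD4 on the opposite strand.

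ABCE1 and ABCF2 were the most abundant members per coding length in RNA, and most membrane transporters were scarce. All 4 factors were measured in both assays, against 20 of 41 membrane members in RNA and 16 of 41 in footprints. Per kilobase of coding sequence, ABCE1 stood at 141 CPM in KO-labelled RNA and 112 in OE-labelled RNA. ABCF2 followed with 89.3 and 70.4 CPM per kilobase in the same order of lines. The median of the 20 measured membrane members was 9.67 CPM per kilobase in KO-labelled RNA and 11.2 in OE-labelled RNA. ABCD3, which imports branched and long-chain acyl-CoA into peroxisomes, was the most abundant membrane member, with 39.4 CPM per kilobase in KO-labelled RNA and 39.3 in OE-labelled RNA. It stood above ABCF1 in both RNA libraries, at 35.5 CPM per kilobase in the KO-labelled and 28.3 in the OE-labelled line. Levels per length assume that reads were counted over the coding sequence, which is not given in the sources used here. The 41 membrane members together held 0.0815% of KO-labelled RNA counts and 0.0817% of OE-labelled RNA counts. The 4 factors held 0.0604% and 0.0463% in the KO-labelled and OE-labelled lines.

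**Figure D1:**
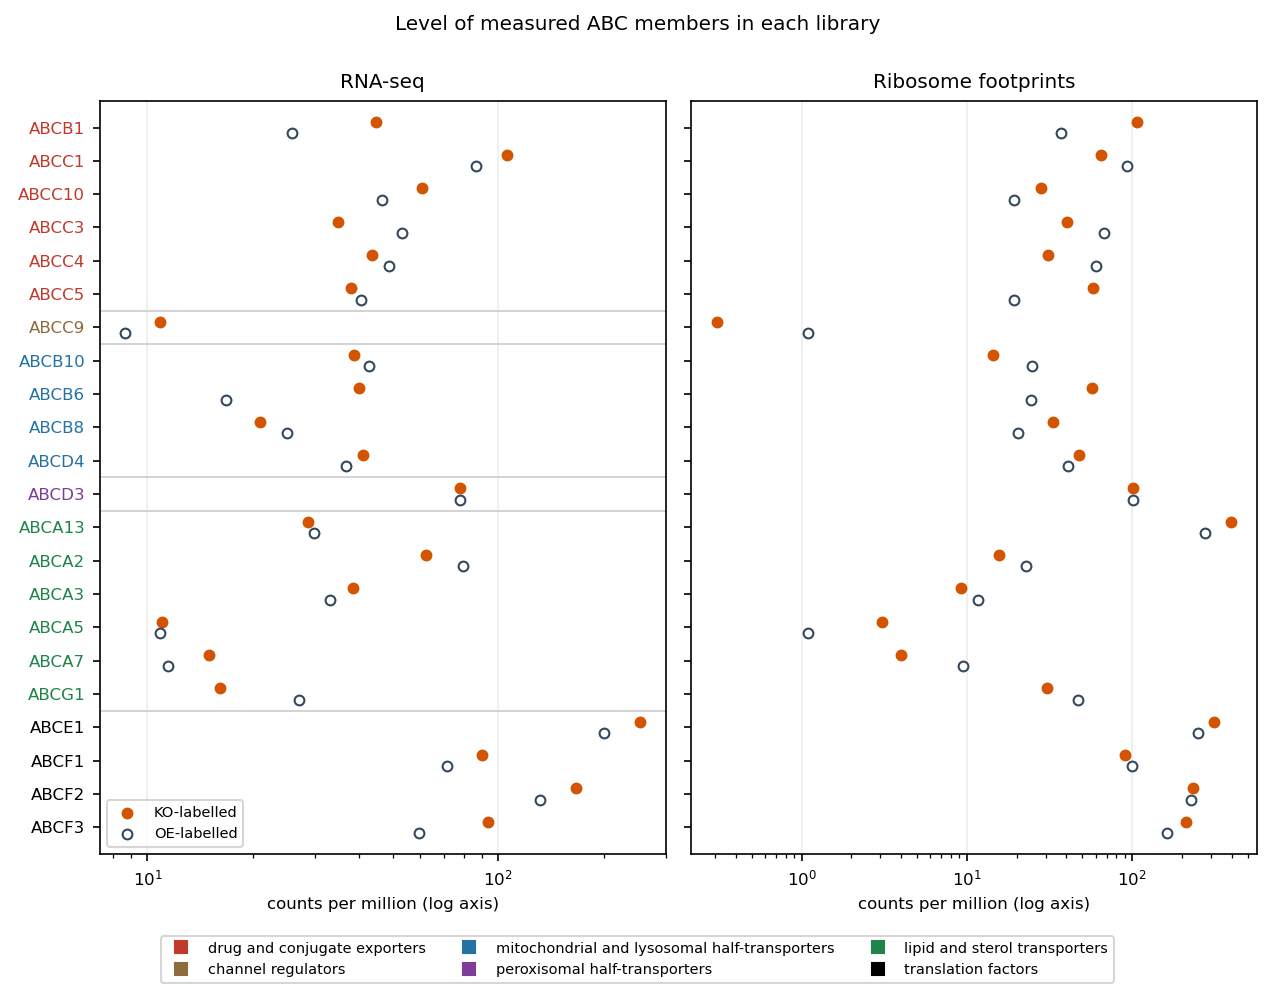
Level of members measured in RNA, in CPM on a log axis, with RNA on the left and footprints on the right; filled points are the KO-labelled and open points the OE-labelled library, 1 library each. ABCE1 leads the RNA panel with 254 CPM in the KO-labelled and 200 CPM in the OE-labelled line, while ABCA13 leads the footprint panel with 398 and 275 CPM.

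In mRNA, few members stood far from equal levels. Of the 24 measured members, 1 (ABCB6) was at least 2-fold higher in the KO-labelled library, where 2.99% of all 9855 measured genes were. None of the 24 was at least 2-fold lower, against 3.49% of all genes. At 1.5-fold, 2 members were higher (ABCB1 and ABCB6; background 10.5%) and 4 were lower, among them ABCC3 and ABCG1 (background 10.5%). In footprints, 3 of 20 measured members were at least 2-fold higher (ABCB1, ABCB6 and ABCC5), against 4.66% of 7323 genes, and 1 was at least 2-fold lower, against 4.44%. At 1.5-fold these counts were 4 and 5, against 15.0% and 14.0% of all genes. The median log2 ratio over all 24 members was -0.03 in mRNA, where all genes had 0.01, and over 20 members 0.06 in footprints, where all genes had 0.02. The family as a whole was therefore centred near 0, with single members on either side. Scaling by total counts in place of TMM moved the median of all genes in mRNA to 0.13 and that of the 20 membrane members to -0.03, and the signs given for single members below held in each scaling tried unless stated.

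**Figure D2:**
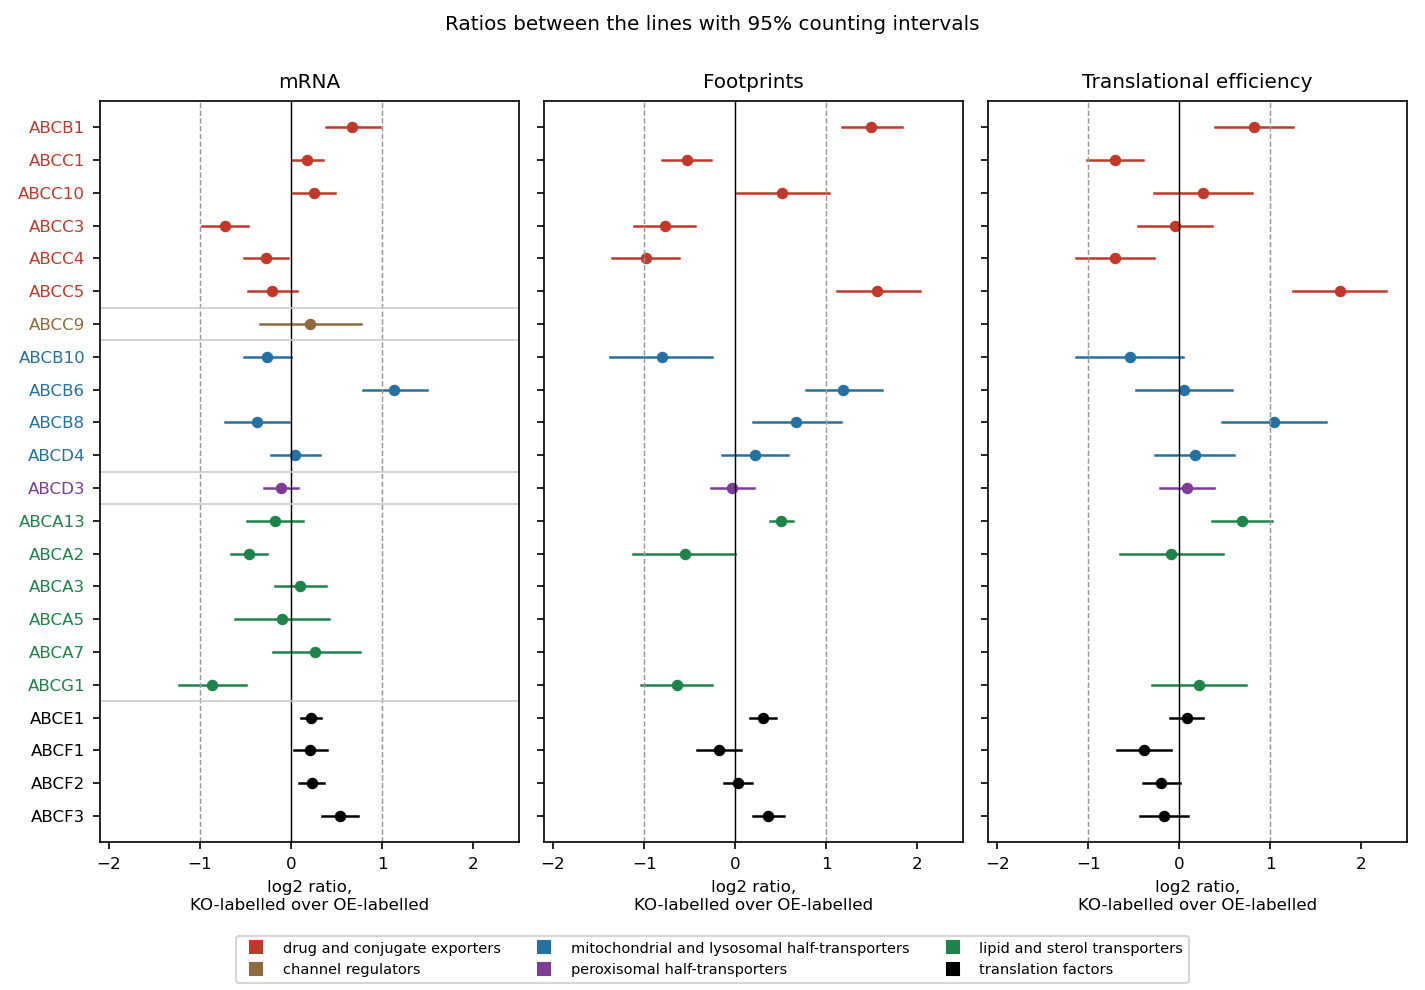
Log2 ratios of the KO-labelled over the OE-labelled library for mRNA, footprints and translational efficiency, each for members measured in it, with bars for 95% counting intervals and dashed lines at 2-fold. ABCB6 is the only member past the upper dashed line in mRNA; ABCB1, ABCB6 and ABCC5 pass it in footprints, and ABCB8 and ABCC5 in efficiency.

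Among the drug and conjugate exporters, ABCB1 was higher in both assays. It had 305 RNA counts in the KO-labelled and 140 in the OE-labelled library, a log2 ratio of 0.68 (95% interval 0.39 to 0.98). Its footprints numbered 349 in the KO-labelled and 102 in the OE-labelled library, 2.82-fold higher (log2 ratio 1.49, 1.18 to 1.83). Its translational efficiency, which is the footprint ratio divided by that of mRNA, was 1.76-fold higher (log2 ratio 0.82, 0.39 to 1.25). Only 74 of 7323 genes had a higher footprint ratio, against 781 of 9855 genes with a higher mRNA ratio. The listed transcript (ENST00000622132, 28 exons, chromosome 7, 87503633 to 87601073) lies beside ABCB4, the exporter of phosphatidylcholine into bile, which did not share this direction. ABCB4 had 13 RNA counts in the KO-labelled and 24 in the OE-labelled library, with 7 and 19 footprint counts in the same order. It was 2.47-fold lower in mRNA (95% interval -2.43 to -0.30 in log2) and 3.15-fold lower in footprints (-3.21 to -0.40), from counts too low to pass the filter. The neighbours thus differed in direction in both assays.

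ABCC5, an exporter of cyclic nucleotides and glutathione conjugates, differed in footprints alone. Its RNA counts were 260 in the KO-labelled and 220 in the OE-labelled library, a log2 ratio of -0.20 (-0.47 to 0.06). Its footprint counts were 190 in the KO-labelled and 53 in the OE-labelled library, 2.94-fold higher (log2 ratio 1.56, 1.12 to 2.03). Its translational efficiency was 3.39-fold higher (log2 ratio 1.76, 1.25 to 2.27), and 24 of 7260 genes lay above it.

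ABCC3 and ABCC4, of the same multidrug resistance protein (ABCC) branch, went the other way from ABCC5 in footprints. ABCC3, an exporter of bile acids and glucuronides on the basolateral side of epithelia, had 238 RNA counts in the KO-labelled and 289 in the OE-labelled library. It was 1.65-fold lower in mRNA (log2 ratio -0.72, -0.98 to -0.47). With 131 against 185 footprint counts it was 1.71-fold lower there (log2 ratio -0.77, -1.11 to -0.44), close to its mRNA ratio. ABCC4, an exporter of cyclic nucleotides and prostaglandins, had 298 RNA counts in the KO-labelled and 265 in the OE-labelled library (log2 ratio -0.28, -0.52 to -0.03). It was 1.97-fold lower in footprints, with 101 against 165 counts (log2 ratio -0.98, -1.36 to -0.62), just inside 2-fold.

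ABCC1, the exporter of glutathione conjugates and leukotriene C4, was slightly higher in mRNA and lower in footprints. RNA counts were 720 in the KO-labelled and 468 in the OE-labelled library (log2 ratio 0.18, 0.01 to 0.35). Footprint counts were 212 and 253 in the same order (log2 ratio -0.53, -0.80 to -0.26). Efficiency was 1.63-fold lower for both ABCC1 (log2 ratio -0.71, -1.02 to -0.40) and ABCC4 (-0.71, -1.13 to -0.28). ABCC10, an exporter of lipophilic drugs, had 412 RNA counts in the KO-labelled and 254 in the OE-labelled library, with 92 and 53 footprint counts. Its log2 ratios of 0.25 (0.02 to 0.48) and 0.51 (0.02 to 1.04) were both above 0.

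The single-domain transporters of mitochondria and lysosomes held the one member past 2-fold in mRNA. ABCB6, described as a porphyrin transporter, had 273 RNA counts in the KO-labelled and 91 in the OE-labelled library, 2.20-fold higher (log2 ratio 1.13, lower 95% bound 0.79). Footprints numbered 185 in the KO-labelled and 67 in the OE-labelled library, 2.27-fold higher (log2 ratio 1.18, 0.78 to 1.61). Its efficiency ratio was 0.05 (-0.48 to 0.57), with a sign that differed between scalings. The listed transcript (ENST00000265316, 19 exons, chromosome 2, 219209766 to 219219017) shares 94.1% of its exon bases with the annotated locus AC068946.2 on the same strand. That locus is not among the counted genes, and how reads shared with it were assigned is not given in the sources used here.

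ABCB8 and ABCB10, also mitochondrial, did not share the direction of ABCB6 in mRNA. ABCB8, an inner membrane transporter and part of a mitochondrial potassium channel, diverged between the assays. It had 143 RNA counts in the KO-labelled and 136 in the OE-labelled library (log2 ratio -0.37, -0.72 to -0.02), with 108 and 56 footprint counts (0.67, 0.19 to 1.16). Its efficiency was 2.05-fold higher (log2 ratio 1.04, 0.46 to 1.61). ABCB10, an inner membrane transporter linked to haem synthesis in erythroid cells, had 264 and 232 RNA counts in the KO-labelled and OE-labelled lines, and 47 and 68 footprint counts (log2 ratios -0.26, -0.52 to 0.00, and -0.80, -1.38 to -0.25). ABCD4, which acts in the release of cobalamin from lysosomes, lay near 0 in both assays (0.04, -0.22 to 0.31, and 0.21, -0.15 to 0.58).

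Of the peroxisomal importers, ABCD3 stood near equal levels in both assays. It had 531 RNA counts in the KO-labelled and 422 in the OE-labelled library, with 330 and 278 footprint counts. Its log2 ratios were -0.11 (-0.30 to 0.07), with a sign that differed between scalings, and -0.03 (-0.26 to 0.21).

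Lipid and sterol transporters were mostly scarce, and 6 of 17 were measured in RNA. ABCG1, which moves cholesterol to high-density lipoprotein, had 110 RNA counts in the KO-labelled and 147 in the OE-labelled library. It was 1.82-fold lower in mRNA, the lowest measured member (log2 ratio -0.86, -1.23 to -0.50). Its footprints were 100 in the KO-labelled and 129 in the OE-labelled library (log2 ratio -0.64, -1.04 to -0.26). ABCA2, an endolysosomal lipid transporter, had 425 and 431 RNA counts and 51 and 62 footprint counts in the KO-labelled and OE-labelled lines (log2 ratios -0.46, -0.66 to -0.27, and -0.56, -1.12 to -0.00). ABCA1, the exporter of cholesterol and phospholipid to apolipoprotein A-I, was under the filter with 12 RNA counts in the KO-labelled and 37 in the OE-labelled library (log2 ratio -2.03, -3.14 to -1.10). Its 19 and 15 footprints did not show this (0.05, -0.99 to 1.15). ABCA3 (log2 ratio 0.10), ABCA5 (-0.10, of either sign between scalings) and ABCA7 (0.27), measured in RNA alone, had mRNA intervals that included 0.

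**Figure D3:**
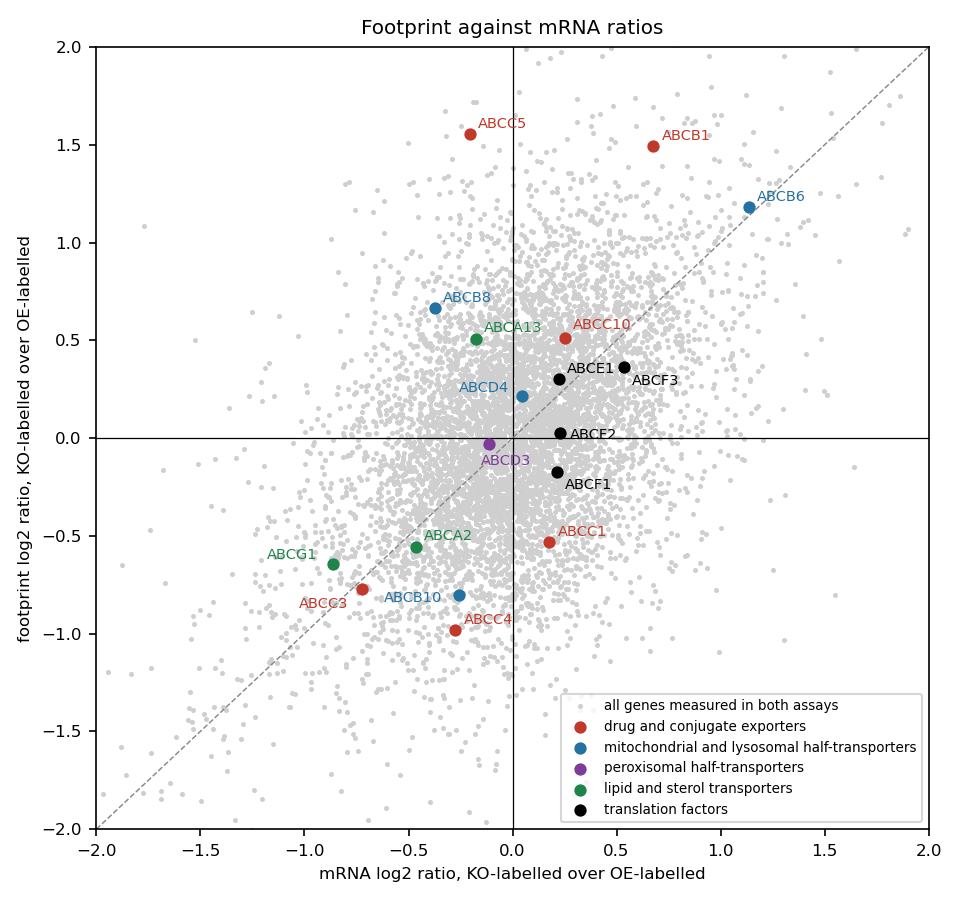
Footprint log2 ratio against mRNA log2 ratio, KO-labelled over OE-labelled, for 7260 genes measured in both assays (grey) and ABC members among them (coloured by role); the dashed diagonal marks equal ratios. ABCB6 lies on the diagonal at 1.13 and 1.18, ABCC5 and ABCB1 lie above it, and ABCC1 and ABCC4 below it; both axes end at 2, so some grey points are not drawn.

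The ribosome factors lay closer together than the transporters, but they are only 4 genes and have more counts than most transporters. A range widens with more genes and with fewer counts, so the spreads of the classes are not directly comparable. All 4 had mRNA ratios above 0, with a median of 0.22, while the 20 membrane members had a median of -0.15 and ranged from -0.86 to 1.13. Of all 9855 measured genes, 5039 were above 0, and the quartiles were -0.29 and 0.31. ABCE1 had 1728 RNA counts in the KO-labelled and 1088 in the OE-labelled library (log2 ratio 0.22, 0.11 to 0.33), with 1019 and 682 footprints (0.30, 0.16 to 0.45). ABCF1 had 614 and 389 RNA counts in the KO-labelled and OE-labelled lines (0.21, 0.03 to 0.40), with 293 and 273 footprints (-0.17, -0.42 to 0.07). ABCF2 had 1137 and 714 RNA counts (0.23, 0.09 to 0.36), with 763 and 618 footprints (0.03, -0.13 to 0.18), again with the KO-labelled line first. ABCF3 had 637 RNA counts in the KO-labelled and 323 in the OE-labelled library (0.53, 0.34 to 0.73), with 690 and 442 footprints (0.37, 0.19 to 0.54). None of these differences reached 1.5-fold with TMM, though ABCF3 in mRNA passed it with total counts (log2 ratio 0.65). The counting intervals are narrow because these genes have many counts, and they do not measure the spread between cultures. The efficiency ratios of the factors ranged from -0.39 (ABCF1, -0.69 to -0.09) to 0.08 (ABCE1, -0.10 to 0.26, of either sign between scalings), with a median of -0.18. The 16 membrane members had a median efficiency ratio of 0.13 and ranged from -0.71 to 1.76, and all 7260 genes had a median of -0.00. At least 2-fold higher efficiency was found for 2 of 20 members (ABCB8 and ABCC5), against 3.65% of all genes, and at least 2-fold lower efficiency for 0, against 3.60%. ABCB8 fell just inside 2-fold with total counts (log2 ratio 0.94) and with 5 added to each count (0.99). ABCC5 stayed past it in both (1.66 and 1.68). At 1.5-fold, 5 members were higher (among them the same pair, ABCA13 and ABCB1; background 13.4%) and 2 were lower (ABCC1 and ABCC4; background 12.9%).

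Within each line, footprints over RNA separated single members rather than the classes. The measure is the log2 ratio of footprint CPM to RNA CPM in that line. The 4 factors had a median of 0.39 in the KO-labelled and 0.63 in the OE-labelled line, against 0.44 and 0.33 for the 16 membrane members and 0.19 and 0.26 for all 7260 genes. The factors' median less that of the membrane members was -0.05 in the KO-labelled and 0.30 in the OE-labelled line, and 0.13 and 0.49 with a minimum mean of 10 counts, so its sign in the KO-labelled line turned with the filter. ABCA13, a very large protein of the lipid-transporting ABCA branch with 5058 residues, stood apart from every other member. It had 1296 footprints and 195 RNA counts in the KO-labelled line, a log2 ratio of 3.79 (3.58 to 4.01). In the OE-labelled line it had 752 footprints and 162 RNA counts, a log2 ratio of 3.20 (2.96 to 3.45). Only 1 of 7260 genes, LSM4, stood higher in either line. ABCA13 had more footprints than RNA counts, although both RNA libraries were larger. Between the lines its log2 ratios were -0.18 (-0.49 to 0.13) in mRNA and 0.51 (0.38 to 0.64) in footprints. The counts hold no positions, so where on the transcript these footprints lie is not shown.

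At the other end, ABCA2 had a log2 ratio of footprints over RNA of -1.98 (-2.40 to -1.57) in the KO-labelled and -1.80 (-2.18 to -1.41) in the OE-labelled line. ABCB10 stood at -1.41 and -0.77, and ABCC10 at -1.09 and -1.26, with the KO-labelled line first. Among the factors, ABCF3 was highest in both lines, at 1.18 (1.02 to 1.33) in the KO-labelled and 1.44 (1.24 to 1.65) in the OE-labelled line. ABCC5 changed side, with 0.61 (0.34 to 0.88) in the KO-labelled and -1.05 (-1.48 to -0.62) in the OE-labelled line. ABCC4 changed side in the opposite direction, with -0.49 (-0.82 to -0.17) in the KO-labelled and 0.31 (0.03 to 0.59) in the OE-labelled line. ABCB8, ABCC1 and ABCF1 also differed in sign between the lines, but not with both intervals clear of 0.

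**Figure D4:**
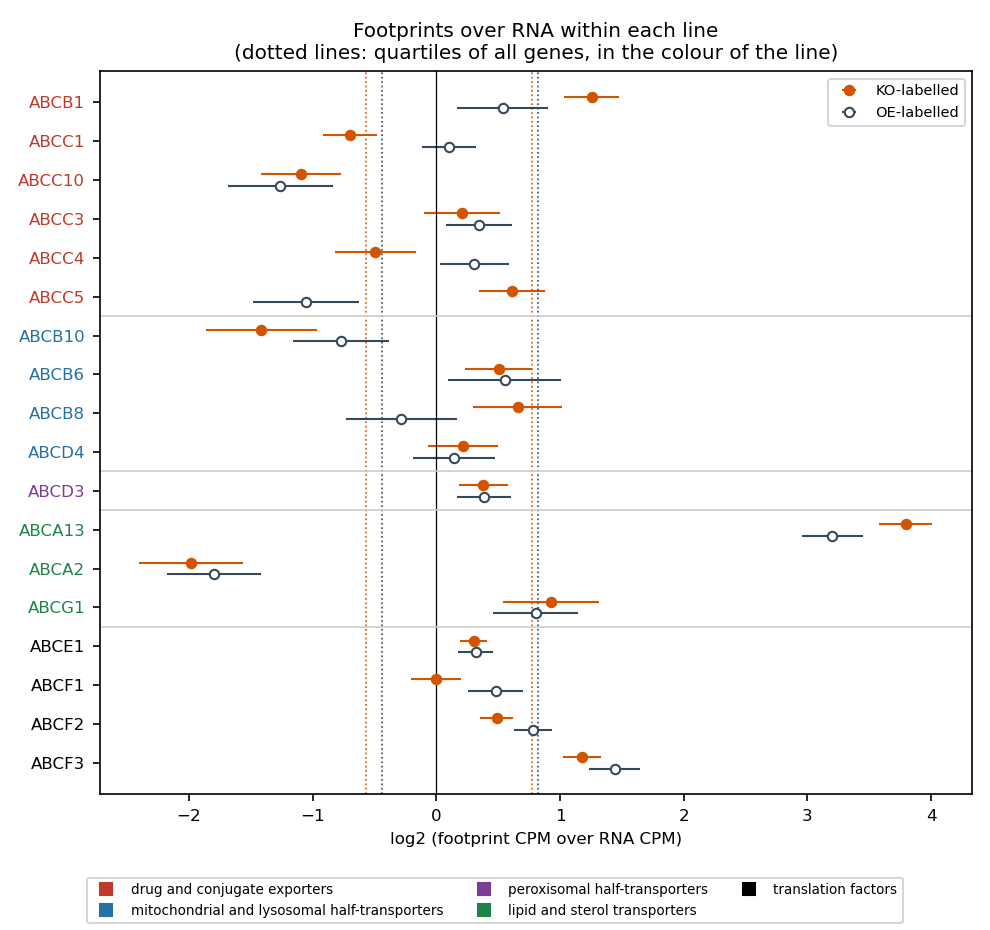
Log2 ratio of footprint CPM over RNA CPM within the KO-labelled line (filled) and the OE-labelled line (open) for members measured in both assays, with 95% counting intervals and dotted lines at the quartiles of all 7260 genes. ABCA13 lies at 3.79 and 3.20, far to the right of the other members, and ABCA2 lies lowest at -1.98 and -1.80.

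Neighbouring genes on the chromosome moved with some members. For each member, the median mRNA log2 ratio was taken over the nearest measured genes, 20 on each side where the chromosome allowed. Beside ABCG1 on chromosome 21 this median was -0.49, and over the 105 measured genes of that chromosome it was -0.53, against -0.86 for ABCG1 itself. Around ABCF3 on chromosome 3 it was 0.34, against 0.53 for ABCF3. ABCC5, on the same chromosome, had neighbours at 0.30 and its own mRNA ratio at -0.20, and ABCD4 on chromosome 14 had 0.29 beside 0.04. ABCC5 lies close to ABCF3, so their sets of neighbours can share genes. Over all measured genes of the chromosome the median was 0.20 for chromosome 3 and 0.25 for chromosome 14. Around ABCB1 (0.05) and ABCB6 (0.03) the neighbours lay near 0. The part of chromosomal position in the ratios of ABCG1 and ABCF3 was not tested.

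**Figure D5:**
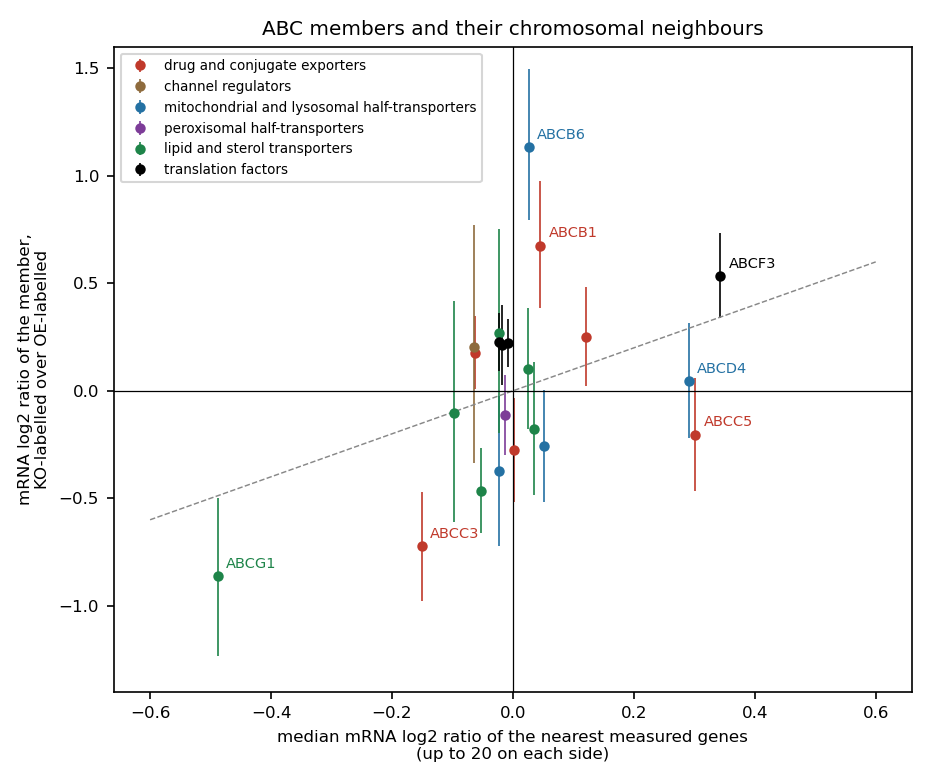
Messenger RNA log2 ratio of measured members, KO-labelled over OE-labelled, with 95% counting intervals, against the median ratio of the nearest measured genes; the dashed line marks equal values. ABCG1 at -0.86 has neighbours at -0.49 and ABCF3 at 0.53 has neighbours at 0.34, while ABCB6 and ABCB1 stand above neighbours near 0.

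The remaining 21 members were under the filter in both assays, with at most 49 RNA and 28 footprint counts in any library. ABCB11 (the bile salt export pump of hepatocytes), ABCD2 and ABCG5 had no count in any library. A count of 0 allows up to 0.440 CPM in KO-labelled RNA, 0.553 in OE-labelled RNA and 0.920 in KO-labelled footprints, and slightly more in the smaller OE-labelled footprint library. ABCG2, the breast cancer resistance protein and another exporter known for drug resistance, had 4 RNA counts in the KO-labelled and 0 in the OE-labelled library and no footprint. ABCC2, the apical conjugate exporter of liver and gut, had 0 and 1 RNA counts in the KO-labelled and OE-labelled lines. ABCB9, a lysosomal peptide transporter, came closest to the filter with 49 RNA counts in the KO-labelled and 20 in the OE-labelled library (log2 ratio 0.83, 0.07 to 1.68) and 28 and 6 footprints (1.86, 0.65 to 3.51). ABCG4, a sterol transporter of brain, had 16 RNA counts in the KO-labelled and 1 in the OE-labelled library (log2 ratio 3.01, 0.87 to 8.95). The other 12 were ABCA4, ABCA6, ABCA8, ABCA9, ABCA10, ABCA12, ABCB5, ABCC6, ABCC8, ABCC11, ABCC12 and ABCG8, with at most 20 RNA and 10 footprint counts. ABCC8, the sulfonylurea receptor of pancreatic beta cells, had 10 footprints in the KO-labelled and 2 in the OE-labelled library, and 8 and 0 RNA counts. ABCC9, a regulatory subunit of potassium channels, was measured in RNA with 74 and 47 counts in the KO-labelled and OE-labelled lines (0.20, -0.34 to 0.77), yet had 1 and 3 footprints.

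Genes that work with the members were described in 7 lists, for which the shares over all genes at 1.5-fold are 10.5% higher and 10.5% lower in mRNA and 15.0% and 14.0% in footprints. Of ABC genes that carry other symbols, TAP2, a subunit of the peptide transporter for antigen presentation, had 634 RNA counts in the KO-labelled and 227 in the OE-labelled library (log2 ratio 1.03), with 333 and 163 footprints (0.75). Its partner TAP1 stood at -0.55 in mRNA from 173 and 186 counts, and CFTR, the chloride channel, had 0 and 3 RNA counts. Among described regulators of ABCB1, 2 of 14 were at least 1.5-fold higher in mRNA, and 1 was lower, counts near those shares. These were EGR1 (log2 ratio 0.97; 5060 against 1903 counts), JUN (1.33; 1498 against 436 counts), both immediate early transcription factors, and NFYC (-0.63; 50 against 57 counts), a subunit of the CCAAT-binding factor. In footprints 4 of 13 were at least 1.5-fold higher, among them NFYA (1.15; 226 against 84 counts), and 1 was lower, FOXO3 (-0.76). NR1I2, the xenobiotic receptor that drives ABCB1 in gut and liver, had no count in any library.

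Partners of the ribosome factors in recycling and rescue lay on both sides of 0, with EIF2S1 (0.40 in mRNA, 0.38 in footprints) and NEMF (0.34 and 0.38) above it in both assays. Against 10.5% of all genes in each direction in mRNA, of 16 measured 0 were at least 1.5-fold higher and 3 lower in mRNA, with a median of -0.15, and 0 were higher and 3 lower in footprints, against 15.0% and 14.0%, with a median of -0.10. The 3 lower in mRNA were EIF2S3 (-0.59), a subunit of eIF2, the ubiquitin ligase gene LTN1 (-0.74) and EIF2D (-0.76). HBS1L, which acts with PELO to rescue stalled ribosomes, stood at 0.06 in mRNA and -0.92 in footprints. Among 17 measured haem and iron-sulfur genes, 1 was at least 1.5-fold higher in mRNA, ISCA2 (0.81), and 1 lower, SLC25A37 (-0.70), the mitochondrial iron importer, with a median of -0.07. Of 13 measured peroxisomal partners, 0 were at least 1.5-fold higher in mRNA and 1 lower, PEX3 (-0.74), with a median of -0.02. In footprints 1 was at least 1.5-fold higher, PEX16 (0.92; 305 against 133 counts), and 2 were lower, the acyl-CoA synthetase gene SLC27A2 (-1.20; 96 against 183 counts) and the catalase gene CAT (-0.83). Of 13 measured sterol efflux genes, 0 were at least 1.5-fold higher in mRNA and 2 lower, NPC2 (-0.81) and NR1H3 (-0.63), which encodes the sterol receptor LXR-alpha, with a median of -0.30. Of 15 measured drug uptake and glutathione genes, 2 were at least 1.5-fold higher in mRNA and 3 lower, against 10.5% of all genes each way, with a median of 0.08. The higher ones were MVP (0.97; 212 against 79 counts), the major vault protein described in drug-resistant tumours, and SLC47A1 (126 against 43 counts), an exporter of organic cations. The lower ones were SLCO4A1 (-0.87), SLC19A1 (-0.76), the folate carrier, and SLC22A5 (-0.62), the carnitine carrier.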

How the data were processed

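The authors deposited raw counts for 19192 genes, each with 1 listed transcript, per the file headers. Size selection kept 18 to 34 nt for footprints and 18 to 50 nt for RNA, ahead of 15 PCR cycles, per the labels' protocols. HISAT2 2.1.0, Bowtie 1.1.2, cutadapt 1.10 and the build GRCh38 are named, without role or order, per the submitters' processing notes. For the counter, its strand setting and removal of PCR copies nothing is stated in these sources. Intervals and floors cover counting error only and take each read as its own molecule. One library's cell line field reads SW840, and its source field SW480.

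Counts were scaled within each assay by TMM (edgeR 4.0.16, R 4.3.3). With 1 library per line and assay no test was run. Log2 ratios have 0.5 added to each count and exact conditional binomial (Clopper-Pearson) 95% intervals. Efficiency and footprint-over-RNA ratios have Wald intervals. Footprints over RNA used CPM of all gene counts. A 0 was read as up to 3 counts. Of 19192 transcripts, 19176 were found in GENCODE 29, whose transcript sequences gave the motif sites. All members are in the counts and medians, and the values of some are not reported here; list genes were named by highest counts among those past 1.5-fold, and others after their values were seen. Members and lists were chosen with earlier results of these data known. Steps were tested on simulated counts. Alternatives were DESeq2 1.42.0, total-count and upper-quartile scaling, other count minimums, fold thresholds and added counts. The work ran in Python 3.11.15 with scipy 1.17.1, pandas 2.3.3, numpy 2.4.6 and, for plots, matplotlib 3.10.9.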

Additional observations from a re-analysis of the deposited data

How the results depend on the processing

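Of 256 values of single members under other scalings or with 5 added to each count, 255 stayed within their counting interval. ABCE1 in mRNA moved to 0.34 with total counts, and no value past 2-fold changed sign. Another scaling shifts every gene of an assay by the same amount, so these values are not separate checks. In mRNA it took the median of all genes from 0.01 to at most 0.13, too little to reverse a value past 2-fold. The medians over both classes moved by less than the median distance from a member's value to its interval bound under each alternative run. The sign of the difference between the classes in footprints over RNA turned in the KO-labelled line, to 0.13 with a minimum of 10 counts. Counts of members past 2-fold are small and changed with the filter and threshold, by construction. In mRNA, the 1 higher member became 0 with a mean count of at least 200, 6 with no minimum, 2 at 1.5-fold and 0 at 3-fold; the 0 lower became 2 with a minimum of 10, 9 with none and 4 at 1.5-fold. In footprints, the 3 higher became 1 with a minimum of 200, 8 with none and 0 at 3-fold; the 1 lower became 3 with a minimum of 10, 0 with 200, 4 with none, 5 at 1.5-fold and 0 at 3-fold. In efficiency, the 2 higher became 1 with total counts, 1 with 5 added to each count, 4 with a minimum of 10, 0 with 200, 8 with none, 5 at 1.5-fold and 1 at 3-fold; the 0 lower became 1 with a minimum of 10, 3 with none and 2 at 1.5-fold. No paired analysis was possible because each line and assay had 1 library. For the same reason no library could be left out. Depth limits the 21 members under the filter, 9 of which had at most 3 counts in every library.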
